A study of Mus musculus with 5 samples.

Results

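Pericytes and vascular smooth muscle cells, together the mural cells of vessels, were sought by their transcripts in dissociated mouse back skin. Cells were chosen by measured values, and a cell entered if it held at least 4 UMIs (unique molecular identifiers, each counting one captured RNA molecule) summed over Rgs5, Notch3, Abcc9 and Kcnj8. It also had to stay under 30 UMIs of Col1a1 and Col3a1 and under 20 UMIs of Krt14 and Krt5 per 10000 UMIs, and to hold at most 1 UMI of Pecam1 and Cdh5. The rule found 462 of 34041 kept cells, where a kept cell had 500 to 8000 genes and at most 10% mitochondrial UMIs. There were 135 and 134 chosen cells in the Smo+/- libraries, against 88 and 105 in the control libraries.

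The 4 libraries were unsorted dorsal skin of female mice at postnatal day 46, captured with droplet-based 3′ chemistry. The Smo+/- libraries carried Lepr-Cre;mTmG;Smo+/- and the control libraries Lepr-Cre;mTmG, written Lepr-Cre;mTmG;Smo in the protocol text. All 4 thus carried Lepr-Cre, a recombinase driven from the leptin receptor gene, and mTmG, in which Cre replaces a tomato membrane signal by green fluorescent protein (GFP). The protocols call the 2 libraries of each genotype technical replicates, so p-values measure only the spread between preparations and not between mice. A further library of sorted GFP-positive cells from Lepr-Cre;mTmG females at day 50 was made with an older version of the chemistry. Smo, the Hedgehog signal transducer (GRCm38 chr6:29735503-29761365, plus strand), was not lower in the libraries labelled Smo+/-. In kept cells outside the chosen set it had 18.4 and 17.4 CPM (UMIs per 1000000 UMIs of the summed cells) in Smo+/- libraries, against 13.0 and 13.3 CPM in control libraries. YFP, a reporter that the genotype labels do not name, had 9.02 and 8.93 CPM there in Smo+/- libraries and was listed at 0 in both control libraries. How the allele of Smo was altered is not given in the labels, so Smo+/- is used here as the name on the label and not as a measured gene dose.

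Mural cells wrap the endothelial tube. Endothelial Pdgfb recruits them through the receptor Pdgfrb, Notch ligands on endothelium signal to Notch3 on their surface, and they share a basement membrane with the vessel. Pericytes sit on capillaries and carry the ATP-sensitive potassium channel whose pore is Kcnj8 and whose regulatory subunit is Abcc9. Smooth muscle cells of arterioles and venules instead hold large amounts of the contractile proteins Acta2, Tagln and Myh11. Rgs5, a regulator of G-protein signalling, marks mural cells in many tissues.

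The 462 chosen cells were not all mural by their transcripts. In 56 of them, 19 and 9 in Smo+/- libraries and 14 and 14 in control libraries, the 4 rule genes made up under 4 UMIs per 10000. These 56 cells had a median of 37304.5 UMIs and held 48.4% of all UMIs of the chosen cells. Notch3 gave 80.0% of their rule-gene UMIs, and Rgs5 was found in 13 of the 56. Keratinocyte markers exceeded 50 UMIs per 10000 in 43 of the 56, against 17 of the other 406 chosen cells. At least 3 pericyte or smooth-muscle markers that the rule did not use were found in 27 of the 56 and in 362 of the other 406.

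Because the deep cells met a fixed UMI count at a low density of the rule genes, results are also given for a density set. That set has the same limits but at least 4 rule-gene UMIs per 10000 UMIs, a choice made after the make-up of the chosen cells had been seen. It held 522 cells, 148 and 157 in Smo+/- libraries and 97 and 120 in control libraries, of which 406 were chosen cells and 116 were shallower ones with a median of 2197 UMIs. At least 3 pericyte or smooth-muscle markers outside the rule were found in 387 of the 522, and none in 49. The 116 shallower cells had a median of 1 rule-gene UMI. At least 3 such markers were found in 25 of them and none in 43, while 15 held at least 3 T cell markers and 17 at least 3 papilla markers. Most of the 116 were thus not shown to be mural, and the word mural is used below for the sets and not for each cell.

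For comparison, cells were gated into 4480 fibroblasts (at least 30 UMIs of Col1a1 and Col3a1 per 10000), 401 blood endothelial cells (at least 3 UMIs of Pecam1 and Cdh5) and 3877 keratinocytes (at least 100 UMIs of Krt14 and Krt5 per 10000), each with at most 1 rule-gene UMI. Because the rule chose the mural cells against such cells, the contrast with them is a description without a test. Among genes at least 8-fold above all 3 gates, those with the highest mean CPM in the chosen cells were Krt10 at 4376, Krtdap at 3868, Krt77 at 3759 and Sbsn at 2533, all genes of suprabasal keratinocytes, followed by Gm13889 at 2108 and Rgs5 at 1500. In the density set they were Gm13889 at 3632, Rgs5 at 2676, Procr at 1995, Tagln at 1611, Tpm2 at 1260, Ccl11 at 1233 and Acta2 at 1119 CPM. Rgs5 is a rule gene and the density set was defined by rule-gene density, so its place there is a description, whereas the contractile genes Tagln, Tpm2 and Acta2 were not used by either rule.

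**Figure D1:**
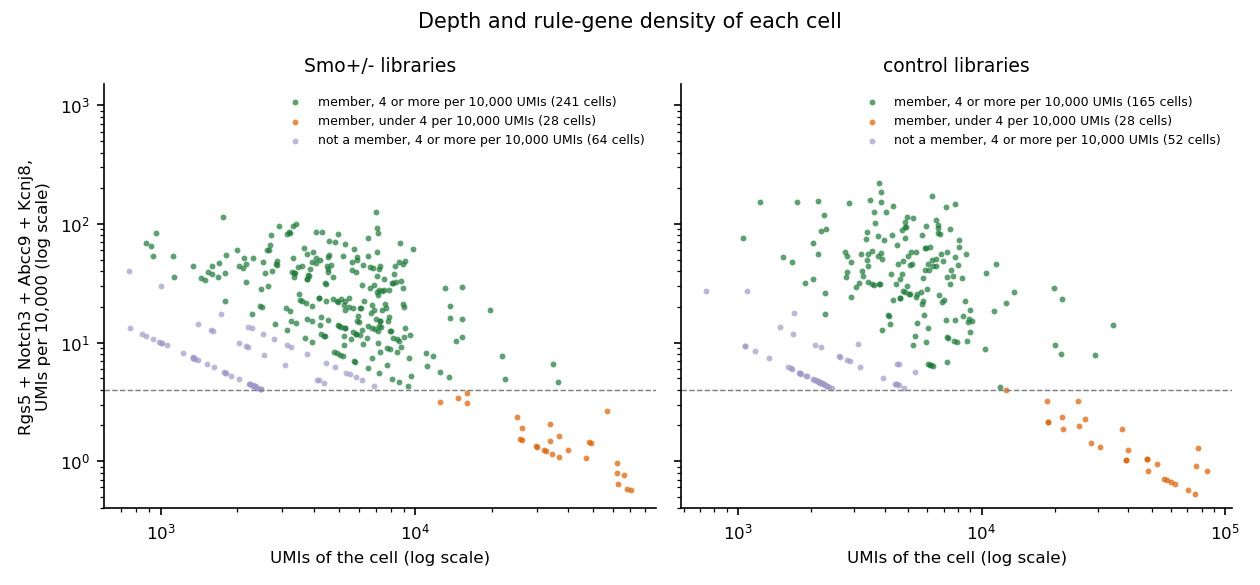
Each point is one cell, by its total UMIs (x, log scale) and the UMIs of the 4 rule genes per 10000 UMIs (y, log scale), for Smo+/- libraries on the left and control libraries on the right. The dashed line is the density of 4 per 10000; the 56 chosen cells under it, 28 in each panel, lie at the right-hand end of the depth range, and the pale points above it are the 116 cells that the UMI count left out.

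Markers of other skin cells moved with the choice of cells. The summed keratinocyte markers reached 6945 to 16415 CPM in chosen cells of Smo+/- libraries and 17018 to 20638 CPM in those of control libraries. In the density set they lay within 2205 to 2546 CPM in Smo+/- libraries and 3890 to 3899 CPM in control libraries, so the genotypes did not overlap in either set. Smooth-muscle markers summed to 3845 to 4232 CPM in the density set of Smo+/- libraries and 3798 to 4476 CPM in control libraries, and pericyte markers outside the rule to 720 to 745 CPM against 790 to 821 CPM. Fibroblast markers lay at 547 to 628 CPM in Smo+/- libraries and 371 to 466 CPM in control libraries, T cell markers at 195 to 235 CPM against 330 to 437 CPM, and dermal papilla markers at 191 to 273 CPM against 227 to 491 CPM. Blood endothelial markers stood at 169 to 190 CPM against 227 to 232 CPM, with Tek and Ptprb at 0. Dermal sheath markers, which share Mylk and Itga8 with the contractile list, summed to 1784 to 2143 CPM against 1841 to 2009 CPM. No gate was made for dermal sheath cells, so the contractile genes were not set against them. Macrophage or dendritic markers had 106 and 107 CPM against 679 and 148 CPM. Schwann markers had 25.4 and 207 CPM against 285 and 71.0 CPM, and red blood cell genes 67.4 and 418 CPM against 11.6 and 48.4 CPM. Adipocyte markers summed to 54.7 to 67.8 CPM against 62.1 to 108 CPM, with Plin1, Car3 and Cidec at 0. Kept cells outside the chosen set had 38.4 to 48.9 CPM of them in Smo+/- libraries and 13.1 to 13.3 CPM in control libraries. Skeletal muscle markers summed to 1.21 to 1.27 CPM in the density set of Smo+/- libraries and 1.94 to 3.23 CPM in control libraries, with Tnni2, Myh4, Pax7 and Myod1 at 0. The part these cells or their free RNA have in the genotype results was not tested.

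The chosen cells had median depths of 6075 and 5637 UMIs in Smo+/- libraries and 6047 and 5815 UMIs in control libraries. Their summed totals were 1497121 and 1057076 UMIs against 1135572 and 1091444 UMIs. The density set was shallower, with totals of 786331 and 826190 UMIs in Smo+/- libraries and 515458 and 619866 UMIs in control libraries. Of the chosen cells, 6 were marked as doublets and 5 carried a barcode that another library also held. Just inside the rule, the 16, 14, 7 and 12 cells with exactly 4 rule-gene UMIs in Smo+/- 1, Smo+/- 2, control 1 and control 2 had median rule-gene densities of 4.06, 5.85, 2.14 and 1.17 per 10000. Just outside, the 20, 31, 26 and 30 cells with exactly 3 such UMIs had 1.83, 1.65, 1.16 and 1.11 per 10000.

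Rgs5 (chr1:169655501-169695813, plus strand) carried most of the rule. It gave 83.4% of the rule-gene UMIs and was found in 415 of the 462 chosen cells, while Notch3 gave 14.1% and was found in 360. Abcc9 was found in 100 and Kcnj8 in 22. In the density set Rgs5 had 2079 and 1870 CPM in Smo+/- libraries, against 3244 and 3512 CPM in control libraries, with no overlap. Notch3 had 392 and 358 CPM in Smo+/- libraries, against 363 and 398 CPM in control libraries, and the groups overlapped. Abcc9 had 62.3 and 69.0 CPM in Smo+/- libraries and 77.6 and 82.3 CPM in control libraries, and Kcnj8 15.3 and 10.9 CPM against 23.3 and 19.4 CPM. These 4 genes chose the cells, so their levels are a description, and their fits are not read as tests. Abcc9 and Kcnj8 are neighbours on the minus strand of chromosome 6, at chr6:142587862-142702315 and chr6:142564837-142571614, with 16247 bases between them.

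Genes of mural identity that the rule did not use varied in how far they stood above the gates in the density set. Pdgfrb, the receptor that recruits mural cells, had 173 and 159 CPM in Smo+/- libraries, against 173 and 184 CPM in control libraries, and averaged 151 CPM in fibroblast-gate cells. Mcam, an adhesion molecule of mural cells and endothelium, had 203 and 205 CPM against 163 and 169 CPM, and averaged 40.6 CPM in endothelial-gate cells. Pdgfrb thus did not set the cells apart from fibroblasts, whereas Mcam was above every gate. Cox4i2, an isoform of a cytochrome c oxidase subunit, had 94.1 and 81.1 CPM in Smo+/- libraries and 101 and 106 CPM in control libraries, against a mean of 20.4 CPM in fibroblast-gate cells. Kcne4, an accessory subunit of potassium channels, had 192 and 165 CPM in Smo+/- libraries and 332 and 307 CPM in control libraries, against 13.4 CPM in fibroblast-gate cells. Cspg4, the surface proteoglycan often used to stain pericytes, was not higher than in the other gates, with 26.7 and 29.0 CPM in Smo+/- libraries, 19.4 and 27.4 CPM in control libraries and a mean of 48.6 CPM in endothelial-gate cells. Higd1b was sparse, at 7.63 and 13.3 CPM against 19.4 and 24.2 CPM, and at 0 in all 3 gates.

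Among transcription factors of mural cells, Epas1 had 427 and 494 CPM in Smo+/- libraries and 452 and 515 CPM in control libraries. Ebf1 had 678 and 552 CPM against 671 and 695 CPM, and averaged 528 CPM in endothelial-gate cells. Foxc2 had 34.3 and 54.5 CPM in Smo+/- libraries and 48.5 and 48.4 CPM in control libraries, against 0.966 CPM in fibroblast-gate cells. The groups overlapped for Epas1, Ebf1 and Foxc2. Zfhx3 had 277 and 249 CPM against 262 and 386 CPM, where fibroblast-gate cells averaged 22.7 CPM.

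**Figure D2:**
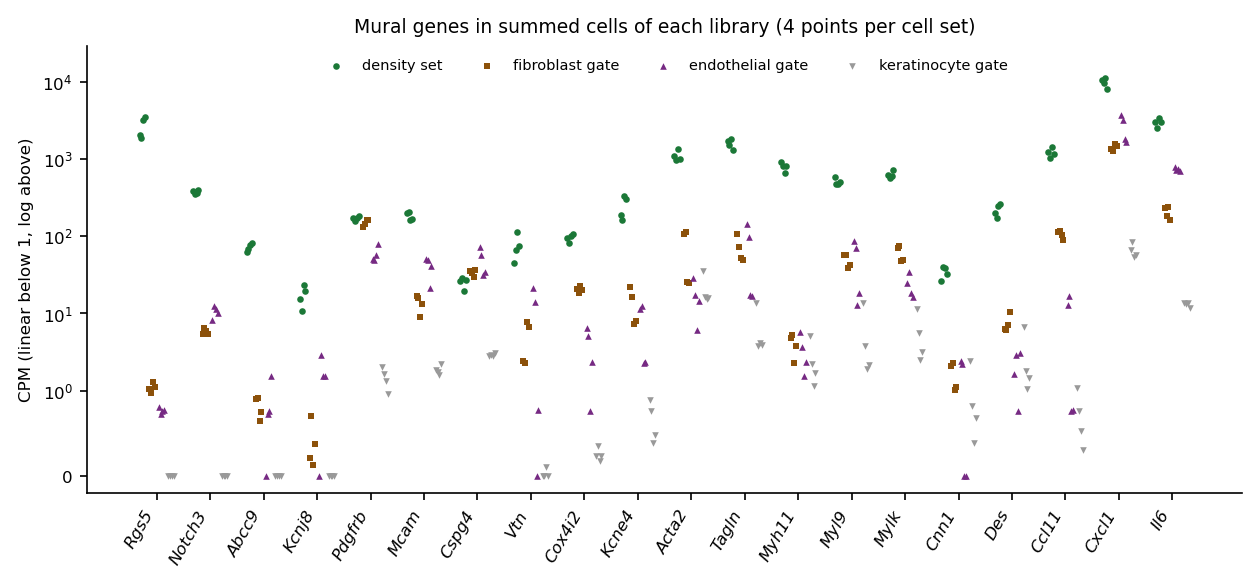
CPM (y, linear below 1 and log above) of rule genes, other mural genes, smooth-muscle genes and chemokines in the summed cells of each of the 4 libraries, for the density set and the fibroblast, endothelial and keratinocyte gates; each set has 4 points a gene. The first 4 genes chose the cells; Pdgfrb and Cspg4 overlap the fibroblast gate, and the contractile genes from Acta2 to Des stand above every gate.

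The main contractile genes did not separate the genotypes. Acta2, the smooth-muscle actin (chr19:34241090-34255590, minus strand), had 1109 and 982 CPM in the density set of Smo+/- libraries, against 1364 and 1023 CPM in control libraries. Tagln, an actin-bundling protein, had 1738 and 1518 CPM against 1853 and 1336 CPM. Myh11, the smooth-muscle myosin heavy chain, had 917 and 819 CPM in Smo+/- libraries, against 656 and 831 CPM in control libraries. The groups overlapped for all of Acta2, Tagln and Myh11. Myl9, the regulatory myosin light chain, had 588 and 481 CPM in Smo+/- libraries and 477 and 510 CPM in control libraries, and Des, the muscle intermediate filament, 200 and 174 CPM against 248 and 260 CPM. Myocd, the coactivator that drives this programme, had 43.2 and 35.1 CPM in Smo+/- libraries and 19.4 and 32.3 CPM in control libraries, and Srf, its DNA-binding partner, 34.3 and 42.4 CPM against 56.3 and 40.3 CPM. Srf binds the CArG box, so the 250 bases upstream of the starts of the list's genes were searched on both strands for it. The box was found in 3 of the 27 promoters of 24 matched genes of the list (11.1%) and in 482 of all 32851 promoters (1.47%). The 3 that hold it are shown because their genes belong to the contractile list; sequences are from RefSeq, build GRCm38.p6, 5′ to 3′ on the gene's strand, and capitals mark the box.
Myl9, chr2:156775214-156775463, plus strand: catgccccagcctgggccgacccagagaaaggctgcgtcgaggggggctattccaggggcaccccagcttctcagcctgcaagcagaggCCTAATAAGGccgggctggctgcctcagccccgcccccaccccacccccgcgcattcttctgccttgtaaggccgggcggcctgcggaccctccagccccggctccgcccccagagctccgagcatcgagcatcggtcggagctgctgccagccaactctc
Rergl, chr6:139501910-139502159, minus strand: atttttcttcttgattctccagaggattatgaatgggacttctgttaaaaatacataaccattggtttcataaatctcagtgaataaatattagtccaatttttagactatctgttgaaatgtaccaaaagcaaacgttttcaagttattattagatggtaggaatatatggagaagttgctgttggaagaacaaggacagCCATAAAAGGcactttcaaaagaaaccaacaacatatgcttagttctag
Srf, chr17:46556163-46556412, minus strand: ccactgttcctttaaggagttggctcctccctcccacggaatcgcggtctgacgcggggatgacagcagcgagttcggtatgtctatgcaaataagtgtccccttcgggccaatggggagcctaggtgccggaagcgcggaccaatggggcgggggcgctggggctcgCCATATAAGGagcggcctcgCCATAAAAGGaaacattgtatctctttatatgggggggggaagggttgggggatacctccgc
The box begins 161 bases upstream in Myl9 and 49 in Rergl, and Srf holds 2, the farther one beginning 82 bases upstream. Such a match is a description of letters and not a bound site. Rergl, a small Ras-related protein, had 28.0 and 13.3 CPM in Smo+/- libraries, against 13.6 and 21.0 CPM in control libraries, and was at or near 0 in the gates.

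Receptors and channels that set vessel tone were detected in both genotypes. Ednra, the endothelin receptor of smooth muscle, had 89.0 and 119 CPM in the density set of Smo+/- libraries, against 66.0 and 85.5 CPM in control libraries. Ednrb, the other endothelin receptor, had 203 and 123 CPM against 171 and 93.6 CPM. Ptgir, the prostacyclin receptor, had 195 and 166 CPM in Smo+/- libraries and 146 and 102 CPM in control libraries. Only Ptgir and Ednra stood higher in both Smo+/- libraries among these receptors, and neither passed the test described below. Ano1, a calcium-activated chloride channel, had 109 and 119 CPM against 105 and 127 CPM, and averaged under 2 CPM in fibroblast-gate and endothelial-gate cells (1.53 and 1.92 CPM). The adrenergic receptor Adra1d was listed at 0 in all 4 libraries. Chemokines were abundant. Cxcl1 had 10636 and 9650 CPM in Smo+/- libraries and 11291 and 8107 CPM in control libraries, and Ccl2 had 5573 and 5249 CPM against 6517 and 4641 CPM. Il6 had 3051 and 2577 CPM in Smo+/- libraries, against 3422 and 3080 CPM in control libraries.

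The density set ran from cells rich in smooth-muscle transcripts to cells poor in them. It was split at 20 UMIs per 10000 of Acta2, Tagln, Myh11 and Cnn1 together, which gave 202 smooth-muscle-rich and 320 smooth-muscle-poor cells with median depths of 5959.5 and 3568.5 UMIs. The split is a range and not a pair of types, since 111 cells lay between 10 and 40 per 10000. At least 3 pericyte or smooth-muscle markers outside the rule were found in 186 of the poor cells, and none in 49. By construction the 4 split genes differed; other contractile genes went with them, Tpm2 at a mean of 2639 CPM in rich and 204 CPM in poor cells and Myl9 at 1066 CPM against 79.3 CPM. Pln, a regulator of the calcium pump, averaged 43.8 CPM in rich and 0.743 CPM in poor cells. Abcc9 averaged 18.9 CPM in rich and 119 CPM in poor cells and Kcnj8 1.40 CPM against 30.2 CPM; both are rule genes, so these levels are a description, and a UMI of either was found in 107 of the 320 poor cells (33.4%). Vtn, the matrix protein vitronectin, averaged 35.4 CPM in rich and 109 CPM in poor cells, and Tbx18, a mural transcription factor, 7.75 CPM against 45.1 CPM. Poor cells also held the chemokines, with Ccl11 at 97.5 CPM in rich and 2180 CPM in poor cells, Ccl2 at 1387 CPM against 9046 CPM and Cxcl9 at 2.36 CPM against 327 CPM. Rgs5 was in both, at 3358 CPM in rich and 2339 CPM in poor cells, as was Pdgfrb at 192 CPM against 158 CPM. Other cells were unevenly spread over the split: keratinocyte markers summed to 1568 to 2159 CPM in rich cells of Smo+/- libraries and 771 to 816 CPM in those of control libraries, and to 2868 to 3011 CPM against 5540 to 5948 CPM in poor cells.

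**Figure D3:**
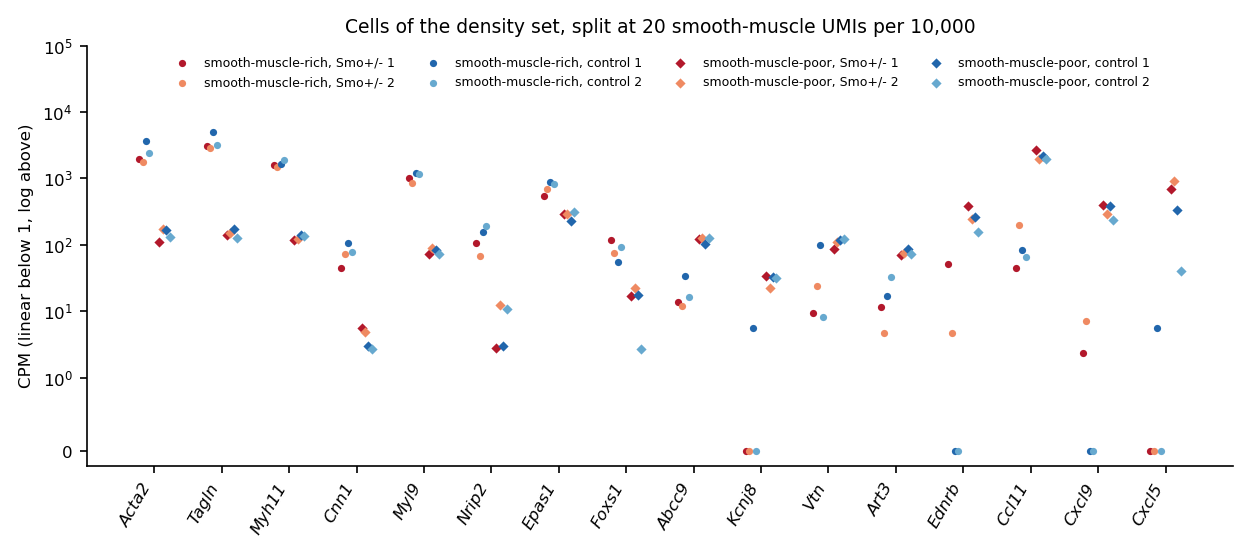
CPM (y, linear below 1 and log above) of smooth-muscle genes, left, and pericyte and chemokine genes, right, in smooth-muscle-rich (circles) and smooth-muscle-poor (diamonds) cells of the density set, one point per library. Acta2, Tagln, Myh11 and Cnn1 made the split; Abcc9, Kcnj8, Ednrb, Ccl11, Cxcl9 and Cxcl5 sit higher in poor cells, and Cxcl5 was at 0 in the rich cells of 3 libraries.

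The share of kept cells that met the rule was larger in both Smo+/- libraries. It was 1.58% and 1.52% in Smo+/- libraries, against 1.06% and 1.25% in control libraries (means 1.55 ± 0.0426% and 1.16 ± 0.132%, SD, n = 2 each). With 2 libraries against 2 the exact two-sided permutation p cannot go below 0.333, and it was p = 0.333. The density set made up 1.73% and 1.78% of kept cells in Smo+/- libraries, against 1.17% and 1.43% in control libraries (exact permutation p = 0.333). Kept cells had median depths of 8621 and 8413.5 UMIs in Smo+/- libraries and 9657 and 9934.5 UMIs in control libraries. Kept cells with at least 2000 UMIs were also thinned to 2000 UMIs. The shares were then 0.796% and 0.781% in Smo+/- libraries, against 0.694% and 0.884% in control libraries. The difference was -7.22e-05 percentage points (exact permutation p = 1). Thinning did not equalise depth alone, because 4 rule-gene UMIs among 2000 ask for a higher density than among more UMIs. Chosen cells had median rule-gene densities of 20.9 and 22.2 per 10000 in Smo+/- libraries, against 31.3 and 31.9 in control libraries. The thinned shares thus do not tell whether depth accounts for the difference. Per endothelial-gate cell there were 1.31 and 1.06 chosen cells in Smo+/- libraries, against 0.978 and 1.28 in control libraries. Smooth-muscle-rich cells among the chosen were 0.690% and 0.669% of kept cells, against 0.399% and 0.512%. More mural cells in the skin and easier release on dissociation cannot be told apart from such a share.

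Genotype was tested with edgeR's quasi-likelihood test on UMI counts summed per library, with a call at a Benjamini-Hochberg adjusted p under 0.05 and a log2 fold change of at least 1 in size. In the 462 chosen cells 1 of 8067 genes was called (0.0124%), with 565 at an unadjusted p under 0.05. The called gene was Prss22, a serine protease (chr17:23993534-23998100, minus strand), which had 82.8 and 93.7 CPM in Smo+/- libraries and 1.76 and 2.75 CPM in control libraries. It rose by 5.23 ± 0.37 log2 units (SE, adjusted p = 0.00959), or 223 against 5 UMIs, a ratio of 38.9 with a 95% counting interval of 16.4 to 121. The call rested on both control libraries, with an adjusted p of 0.542 without control 1 and 0.705 without control 2. The number of calls was 373 without Smo+/- 1, 19 without Smo+/- 2 and 0 without either control library. In simulated counts of the same depth, 25% of genes changed 2-fold and 94% of genes changed 4-fold were called in the chosen cells, beside 4 unchanged genes. The simulated spread between libraries was smaller than the common dispersion of 0.0403 fitted in the chosen cells. Only genes above a minimum count were changed, so these shares may be too high for the measured data.

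In the density set 23 of 6469 genes were called (0.356%), 5 higher (0.0773%) and 18 lower (0.278%) in Smo+/- libraries. At any fold 36 had an adjusted p under 0.05 (0.557%), and 722 had an unadjusted p under 0.05. The 36 include Rgs5, a rule gene, so its place among them is not read as a result. Of the 23, 22 were also tested in the chosen cells and had the same sign there, and Prss22 alone was called there. Leaving out a library gave 93, 84, 145 and 148 calls without Smo+/- 1, Smo+/- 2, control 1 and control 2. In simulated counts, 31% of 2-fold and 84% of 4-fold changes were called in this set, beside 10 unchanged genes. Changes were again placed only in genes above a minimum count, with a spread slightly above the common dispersion of 0.0175 fitted here.

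Receptor signalling genes of mural cells were among the calls. Avpr1a, the vasopressin receptor that constricts vessels (chr10:122448499-122453452, plus strand), had 86.5 and 121 CPM in the density set of Smo+/- libraries, against 314 and 261 CPM in control libraries. It fell by 1.43 ± 0.20 log2 units (SE, edgeR adjusted p = 0.0127), and by 1.19 to 1.68 with a library left out. Its level in kept cells outside the chosen set was 1.30 and 1.29 CPM in Smo+/- libraries and 1.71 and 1.44 CPM in control libraries. Rgs4, which dampens G-protein signals (chr1:169741477-169747642, minus strand), had 301 and 237 CPM in Smo+/- libraries, against 124 and 118 CPM in control libraries, and rose by 1.19 ± 0.17 log2 units (SE, edgeR adjusted p = 0.0155). Its level in the other kept cells was 3.06 and 3.30 CPM against 4.44 and 4.34 CPM. Pi15, a secreted protein of the CAP family (chr1:17601901-17630939, plus strand), had 69.9 and 69.0 CPM in Smo+/- libraries and 163 and 168 CPM in control libraries, and fell by 1.22 ± 0.19 (SE, edgeR adjusted p = 0.0251). Pi15 was picked out after its values were seen. Car4, a membrane-anchored carbonic anhydrase (chr11:84957786-84966044, plus strand), had 5.09 and 1.21 CPM against 46.6 and 54.9 CPM and fell by 3.92 ± 0.50 log2 units (SE, edgeR adjusted p = 0.0101).

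The 5 genes that were higher in Smo+/- libraries were Rgs4, Prss22, Epgn, Ccl4 and Cxcl3. Prss22 had 109 and 100 CPM in the density set of Smo+/- libraries and no UMI in either control library, at least 39.7-fold higher against a floor of 3 UMIs over the control group (edgeR adjusted p = 0.00156). Outside the chosen set it had 33.6 and 32.1 CPM in Smo+/- libraries and 1.97 and 2.22 CPM in control libraries, so the same direction was measured in other skin cells. Epgn, a ligand of the epidermal growth factor family (chr5:91027464-91035215, plus strand), had 333 and 254 CPM against 130 and 111 CPM and rose by 1.32 ± 0.18 log2 units (SE, edgeR adjusted p = 0.0127), where other kept cells had 1630 and 1513 CPM against 1542 and 1578 CPM. Ccl4, a chemokine, had 21.6 and 30.3 CPM in Smo+/- libraries and no UMI in control libraries, at least 9.86-fold higher (edgeR adjusted p = 0.0251, and 0.179 without Smo+/- 2). Other kept cells had 7.04 and 5.51 CPM of Ccl4 against 5.73 and 5.42 CPM. Cxcl3, a neutrophil chemokine, had 135 and 435 CPM against 38.8 and 4.84 CPM, with a wide spread within each group, and rose by 3.82 ± 0.69 (SE, edgeR adjusted p = 0.0467), or by 2.74 to 5.90 with a library left out.

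Several falls were in genes of other skin cells. Krt10, a keratin of suprabasal keratinocytes, had 197 and 150 CPM in the density set of Smo+/- libraries, against 566 and 484 CPM in control libraries, and fell by 1.56 ± 0.16 log2 units (SE, edgeR adjusted p = 0.0068). Krtdap, Lgals7, Sbsn, Fam25c, Asprv1 and Mt4, all expressed in keratinocytes, were called in the same direction. Cd3e, a chain of the T cell receptor complex, had 14.0 and 14.5 CPM against 60.1 and 75.8 CPM and fell by 2.21 ± 0.30 (SE, edgeR adjusted p = 0.0127). Summed over libraries Cd3e had 23 against 78 UMIs in the density set, and 20 against 50 UMIs in the chosen cells. The keratinocyte and T cell marker sums given above were lower in the density set of Smo+/- libraries, and their part in these calls was not tested. Notum, a Wnt-inactivating enzyme that is also a papilla marker, had 6.36 and 3.63 CPM in Smo+/- libraries, against 83.4 and 32.3 CPM in control libraries, and fell by 3.43 ± 0.59 (SE, edgeR adjusted p = 0.0418). Homer2, 2310046K23Rik, Ptgs1 and Ctla2a also fell. Gt(ROSA)26Sor, the transcript of the locus that reporter alleles occupy, had 1.27 and 3.63 CPM against 34.9 and 51.6 CPM, and fell by 4.01 ± 0.53 (SE, edgeR adjusted p = 0.0111), as it did outside the chosen set (1.76 and 1.79 CPM against 32.0 and 30.1 CPM). Hist1h2al, from a histone family with near-identical copies, had 0 and 1.21 CPM against 19.4 and 22.6 CPM, and its call was lost without Smo+/- 1, Smo+/- 2 or control 1.

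**Figure D4:**
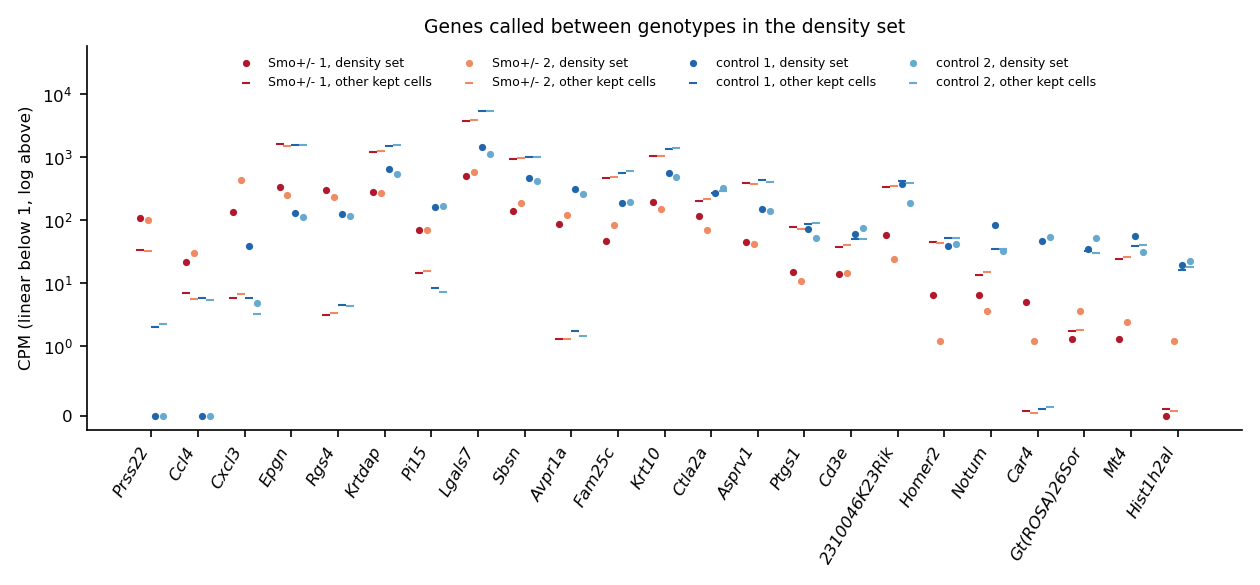
CPM (y, linear below 1 and log above) of the 23 genes called between genotypes in the density set (circles), one point per library with Smo+/- libraries left of control libraries, and of kept cells outside the chosen set in the same library (dashes). Avpr1a, Rgs4 and Car4 are far higher in the density set than in other cells, whereas Krt10 and the other keratinocyte genes are higher in other cells.

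Few genes of any kind were called (0.356% in the density set and 0.0124% in the chosen cells), so nothing is read from the lack of a call in a list. The counts and medians that follow leave out the rule genes. Of 21 tested mural identity genes, Rgs4 rose and none fell in the density set (median log2 fold change -0.12, against -0.01 over all genes tested), and none was called in the chosen cells (median 0.16). Kcne4, at 0.80 lower on the log2 scale, passed the adjusted p (0.0477, edgeR) but not the fold threshold. Of 25 tested contractile genes none was called (median 0.02), and Acta2 changed by -0.16 ± 0.14 and Myh11 by 0.26 ± 0.12 log2 units (SE, edgeR adjusted p = 0.73 and 0.46). Of 24 tone genes Rgs4 rose and Avpr1a fell (median 0.04). None of 10 Notch genes was called (median 0.00), and Nrarp, a Notch target that feeds back on the pathway, had 471 and 482 CPM in Smo+/- libraries, against 239 and 268 CPM in control libraries, 0.94 ± 0.12 log2 units apart (SE, edgeR adjusted p = 0.0101) and just under the fold threshold. In the chosen cells Nrarp had 254 and 375 CPM against 127 and 169 CPM. Pdgfa, a growth factor for Pdgfra-bearing cells, had 608 and 399 CPM in Smo+/- libraries and 283 and 271 CPM in control libraries (0.90 ± 0.19, edgeR adjusted p = 0.0827). No gene was called among 18 vessel signals (median -0.13), 21 basement membrane genes (0.00), 18 mural factors (-0.12), 32 immediate early and heat shock genes (-0.01), 21 chemokines and cytokines (0.12), 16 glycolytic and respiratory genes or 23 collagen and matrix genes (0.01).

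All 16 tested interferon-induced genes were lower in Smo+/- libraries by their fitted values in the density set (median -0.39, against -0.01 over all genes), but none was called, and 14 of 15 were lower in the chosen cells (median -0.24). Bst2, an antiviral membrane protein, had 31.8 and 35.1 CPM in Smo+/- libraries, against 66.0 and 105 CPM in control libraries (adjusted p = 0.093 by edgeR). Cxcl10, an interferon-induced chemokine, had 329 and 270 CPM in Smo+/- libraries and 557 and 576 CPM in control libraries, -0.88 ± 0.13 on the log2 scale (SE, edgeR adjusted p = 0.0135), which passed the adjusted p and not the fold threshold. In smooth-muscle-rich cells of the density set, where 0.935% of genes were called, 2 of 12 tested interferon-induced genes fell and 9 had negative fitted values (median -0.39, against 0.01 over all genes). This lean was not particular to interferon-induced genes. Medians there were -0.38 for basement membrane genes, -0.37 for mural factors and for vessel signals, and -0.52 for collagen and matrix genes. Medians were above 0 for the Notch, Pdgf, chemokine, reporter, and glycolytic and respiratory lists. Isg15, a ubiquitin-like protein, had 200 and 271 CPM there in Smo+/- libraries, against 548 and 422 CPM in control libraries, and fell by 1.05 ± 0.21 log2 units (SE, edgeR adjusted p = 0.0263). Bst2 had 14.0 and 21.4 CPM against 89.4 and 85.2 CPM and fell by 2.30 ± 0.41 (SE, edgeR adjusted p = 0.0169). Cxcl10, counted in the chemokine list, had 214 and 112 CPM against 570 and 337 CPM and fell by 1.47 ± 0.30 (SE, edgeR adjusted p = 0.0302).

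**Figure D5:**
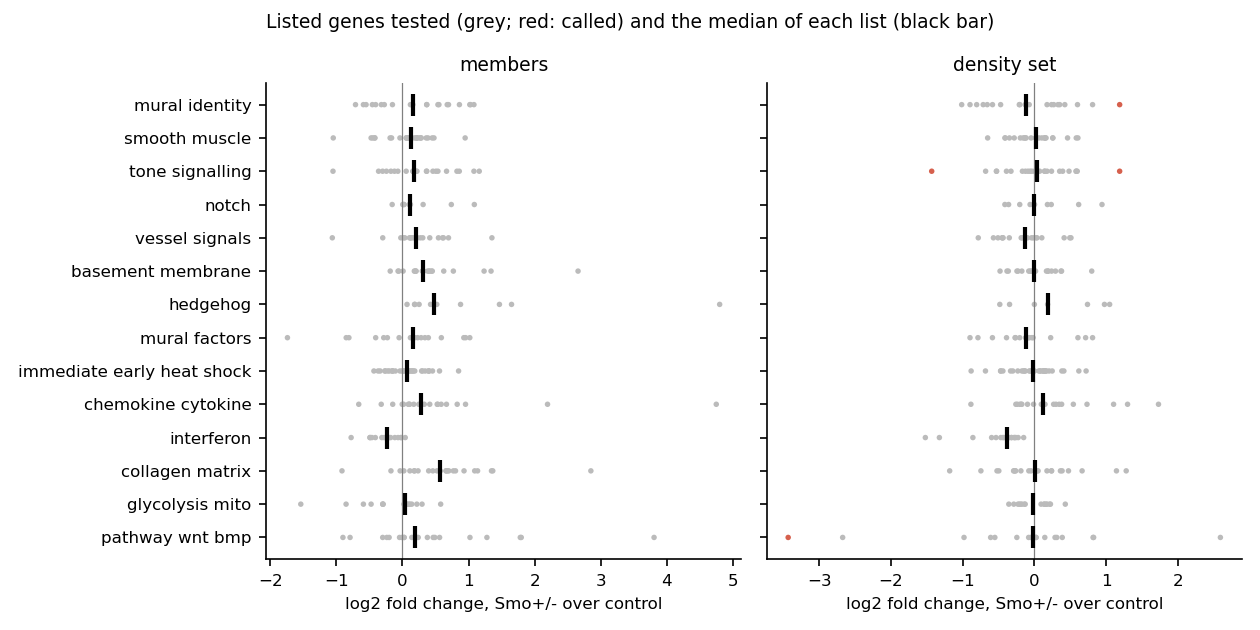
Log2 fold changes (x), Smo+/- over control, of the tested genes of each list other than the rule genes, for the chosen cells (left, titled members) and the density set (right); grey points were not called, red points were, and black bars are list medians. The reporter list, which holds the called Gt(ROSA)26Sor, and the Pdgf list are not drawn. The called genes drawn are Rgs4, which appears in 2 lists, Avpr1a and Notum, and every point of the interferon list in the density set lies below 0.

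The genotype difference was also tested in smooth-muscle-rich cells. Among the chosen cells, 27 of 4037 genes were called in rich cells (0.669%), 2 higher (0.0495%) and 25 lower (0.619%) in Smo+/- libraries. Keratinocyte genes were among the 25, as was Rgs5, a rule gene whose place there is not read as a result. Of these 27 genes, 19 were also tested in rich cells of the density set, where 9 had the same sign and 8 were called. Rich chosen cells under the density numbered 3, of which 2 were in control 1 and 1 in control 2. In poor cells edgeR called 0 of 7358 genes, with 399 at an unadjusted p under 0.05. The test of the difference between rich and poor cells called 1 of 6711 genes (0.0149%), the keratin Krt77, so a difference in a mural gene between rich and poor cells was not shown.

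Rich cells of the density set, added after the data had been seen, gave 37 calls among 3959 genes (0.935%), 16 higher (0.404%) and 21 lower (0.53%) in Smo+/- libraries. The 21 include the rule gene Rgs5, whose level is a description. Des had 231 and 211 CPM in Smo+/- libraries, against 536 and 422 CPM in control libraries, and fell by 1.13 ± 0.19 log2 units (SE, edgeR adjusted p = 0.0120). Kcne4 had 161 and 150 CPM against 274 and 398 CPM and fell by 1.15 ± 0.22 (SE, edgeR adjusted p = 0.0260). Both are mural genes whose libraries did not overlap. Rgs16, another regulator of G-protein signalling, had 35.0 and 47.5 CPM in Smo+/- libraries, against 447 and 138 CPM in control libraries, and fell by 2.78 ± 0.47 (SE, edgeR adjusted p = 0.0120), while in poor cells it had 484 and 501 CPM against 455 and 410 CPM. Avpr1a had 138 and 145 CPM against 223 and 499 CPM and fell by 1.41 ± 0.29 (SE, edgeR adjusted p = 0.0333), and Pi15 had 93.2 and 71.3 CPM against 291 and 272 CPM and fell by 1.79 log2 units (edgeR adjusted p = 0.00376). Col6a1 and Col6a3, chains of the microfibrillar collagen, fell by 1.47 and 1.36 log2 units. Rgs4 had 359 and 295 CPM in Smo+/- libraries and 156 and 191 CPM in control libraries, and did not pass (0.88 ± 0.22, edgeR adjusted p = 0.0878).

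Rgs5, a rule gene whose fit is not read as a test, had 1909 and 1482 CPM in rich cells of Smo+/- libraries, against 4883 and 5158 CPM in those of control libraries. In poor cells it had 2283 and 2273 CPM against 2372 and 2426 CPM. Of 21 tested contractile genes other than the 4 of the split, Des was called in rich cells, with a median of -0.38 against 0.01 over all genes. As given above, several other lists had medians near or below that value in these cells, so the lean was not particular to contractile genes. Acta2, a split gene whose fit is not read as a test, had 1940 and 1760 CPM in Smo+/- libraries and 3609 and 2374 CPM in control libraries. Calls higher in Smo+/- libraries included Ccl5, with 161 and 57.0 CPM against 5.59 and 8.12 CPM, and keratinocyte genes such as Krt16, Krt17, Perp and Sfn, beside the higher keratinocyte sums of those rich cells given above.

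Hedgehog genes were sparsely detected in the mural cells and none was called. Smo itself had 20.3 and 15.7 CPM in the density set of Smo+/- libraries, against 9.70 and 8.07 CPM in control libraries (1.05 ± 0.48 log2 units, SE, edgeR adjusted p = 0.461). Ptch1, the Hedgehog receptor and target, had 25.4 and 42.4 CPM against 17.5 and 17.7 CPM, and Gli1, the target transcription factor, 19.1 and 15.7 CPM against 11.6 and 9.68 CPM. All 3 stood higher in both Smo+/- libraries without passing the test. Hhip, a Hedgehog antagonist and target, had 18.7 and 37.8 CPM in the chosen cells of Smo+/- libraries, against 1.76 and 0 CPM in control libraries, and 6.36 and 8.47 CPM against 1.94 and 0 CPM in the density set. Chosen cells with at least 3 papilla markers numbered 10 of 135 and 10 of 134 in Smo+/- libraries, against 6 of 88 and 4 of 105 in control libraries. In the density set they numbered 11 of 148 and 7 of 157, against 7 of 97 and 5 of 120. Of 11 tested Hedgehog genes in the chosen cells all 11 were higher by their fitted values (median 0.47, against -0.01 over all genes, of which 0.0124% were called), and of 7 in the density set the median was 0.18 (against -0.01 over all genes, of which 0.356% were called). Other lists leaned the same way in the chosen cells. Fitted values were higher for 22 of 25 collagen and matrix genes (median 0.57), 19 of 22 basement membrane genes (0.32) and 18 of 21 vessel signals (0.21). Only the interferon list had a median below 0 there (-0.24).

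The share of chosen cells with a GFP UMI was higher in both Smo+/- libraries before depth was equalised and overlapped between genotypes after it. GFP was found in 45.2% and 44.0% of the chosen cells in Smo+/- libraries, against 36.4% and 37.1% in control libraries. Thinned to 2000 UMIs the shares were 18.5% and 17.5% against 17.6% and 17.6%, beside 11.7% and 10.6% against 8.33% and 8.50% in keratinocyte-gate cells, whose median depth was 14134 to 15684 UMIs. Thinning left out 11 and 8 chosen cells in Smo+/- libraries and 3 and 3 in control libraries. The density set had 139 and 138 CPM of GFP in Smo+/- libraries and 118 and 110 CPM in control libraries, where endothelial-gate cells had 1519 and 886 CPM against 437 and 423 CPM. Fibroblast-gate cells had 326 and 325 CPM of GFP against 58.8 and 65.8 CPM. Tomato had 1014 and 989 CPM in the density set of Smo+/- libraries, against 710 and 736 CPM in control libraries (0.50 ± 0.09 log2 units, SE, edgeR adjusted p = 0.0464). Lepr had 19.1 and 27.8 CPM in the density set of Smo+/- libraries and 13.6 and 6.45 CPM in control libraries, against 154 and 129 CPM and 58.9 and 51.6 CPM in fibroblast-gate cells. YFP had 2.54 and 6.05 CPM in the density set of Smo+/- libraries and 0 in both control libraries.

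A difference in the genotype effect between mural cells and other classes was tested as an interaction with library as a block. Against fibroblast-gate cells it was called in 17 of 12701 genes for the chosen cells (0.134%) and in 20 of 12628 for the density set (0.158%). Against endothelial-gate cells it was called in 99 of 10237 (0.967%) and in 268 of 9448 (2.84%). Acta2 gave -2.31 ± 0.21 log2 units for the chosen cells against fibroblasts (SE, edgeR adjusted p = 0.000412) and -2.25 ± 0.15 for the density set (edgeR adjusted p = 1.16e-05). In fibroblast-gate cells Acta2 had 106 and 113 CPM in Smo+/- libraries, against 25.6 and 24.5 CPM in control libraries, while the chosen cells had 572 and 731 CPM against 801 and 666 CPM. Kcne4 gave -2.07 log2 units for the density set (edgeR adjusted p = 0.00162), with 21.9 and 16.2 CPM against 7.29 and 8.10 CPM in fibroblasts. Avpr1a gave 1.91 ± 0.47 against endothelial-gate cells (SE, edgeR adjusted p = 0.046), which had 2.43 and 2.19 CPM against 25.99 and 24.7 CPM.

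Few cells of the sorted GFP-positive library met the rule. Of 455 deposited barcodes 432 had at least 300 genes, with a median of 2208.5 UMIs. At least 4 rule-gene UMIs were found in 2 of the 432 (0.463%, exact 95% interval 0.0561 to 1.66%), at least 2 in 4 cells and at least 1 in 24 (5.56%). Low depth limits how many cells can reach 4 such UMIs, and the density rule was not applied to this library. This library was made with another chemistry from another age, so no share was compared with the unsorted libraries.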

How the data were processed

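UMI count matrices of 4 unsorted libraries and 1 sorted library were used as deposited by the authors, with whole-number counts per gene and cell barcode and no normalization. Per the submitters' processing notes, Cell Ranger 2.1.1 and 3.1.0, Seurat 3.2.2 and Scanpy 1.6.0 were used, with builds mm10 and GRCm38. The tool behind each matrix is not given in the sources used here. Cells were kept at 500 to 8000 genes and at most 10% mitochondrial UMIs, and the mural cells were chosen by the rule stated above. The members and all gene lists were chosen with earlier results of these data known. Of 383 listed genes 382 were matched to the matrices, and of 130 marker genes 129.

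Counts were summed per library and set, scaled by TMM, filtered with filterByExpr and tested with edgeR 4.0.16 (quasi-likelihood, R 4.3.3), with Benjamini-Hochberg adjustment over all genes tested. A call needed an adjusted p under 0.05 and a log2 fold change of at least 1 in size. Interactions with other gates had library as a block. Shares were compared with exact permutation tests (scipy 1.17.1, Python 3.11.15), and intervals at 95% are exact and cover counting error only. Doublets were marked with scrublet in scanpy 1.11.5 and kept, and leaving them out was an alternative. Named genes were the rule genes and listed genes, up to 12 called rises and 12 called falls with at least 20 UMIs and no overlap between groups, and up to 12 leading genes. CPM are UMIs per 1000000 UMIs of the summed cells, and 3′ UMIs were not divided by gene length. The pipeline was tested on simulated counts. Alternatives were RLE scaling, DESeq2 1.42.0, no filter, a replicate block, other UMI thresholds, thinning to 2000 UMIs and leaving out each library. The density set and its fits were added after the data were seen.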

Additional observations from a re-analysis of the deposited data

Results flagged for a closer look

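The genotype effect differed between the mural cells and other gates, by the edgeR interaction test, for the genes that follow. Each value is the log2 difference between the effect of Smo+/- over control in the mural set and that in the gate. The chosen cells against fibroblast-gate cells gave -2.31 for Acta2, 4.75 for Ccl5, 3.02 for Col15a1, 1.18 for Dcn, 3.13 for Fbln2 and -1.87 for Kcne4. Ccl5, a chemokine, had 57.4 and 43.5 CPM in the chosen cells of Smo+/- libraries, against 0.881 and 2.75 CPM in those of control libraries, and 6.60 and 11.4 CPM against 5.88 and 11.1 CPM in fibroblasts. Col15a1 had 26.1 and 55.8 CPM against 5.28 and 7.33 CPM in the chosen cells, and 392 and 416 CPM against 533 and 531 CPM in fibroblasts. Fbln2 had 14.7 and 39.7 CPM against 5.28 and 1.83 CPM in the chosen cells, and 391 and 419 CPM against 508 and 500 CPM in fibroblasts. Dcn had 133 and 146 CPM against 73.1 and 54.1 CPM in the chosen cells, and 10434 and 10855 CPM against 11322 and 10718 CPM in fibroblasts. Dcn and Fbln2 are fibroblast genes, and the fibroblast marker sums of the chosen cells were 393 to 520 CPM in Smo+/- libraries and 246 to 252 CPM in control libraries.

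The density set against fibroblast-gate cells gave -2.00 for 2310046K23Rik, -2.25 for Acta2, -1.13 for Cxcl10, -1.48 for Cxcl12, 1.24 for Dcn, 1.25 for Epgn, -2.07 for Kcne4 and -2.04 for GFP. Cxcl12 had 54.7 and 65.4 CPM in the density set of Smo+/- libraries and 60.1 and 71.0 CPM in control libraries, whereas fibroblasts had 235 and 219 CPM against 76.4 and 93.4 CPM. Cxcl10 in fibroblasts had 267 and 268 CPM against 229 and 216 CPM, and Epgn had 89.1 and 82.8 CPM against 70.6 and 90.7 CPM.

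The density set against endothelial-gate cells gave -3.08 for 2310046K23Rik, -1.67 for Asprv1, 1.91 for Avpr1a, -1.20 for Ctla2a, -4.92 for Homer2, -5.09 for Mt4 and -1.06 for Sbsn. Avpr1a fell in both, and by 3.31 log2 units in endothelial-gate cells.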

How the results depend on the processing

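In the chosen cells the 1 call was 3 with RLE scaling, 7 with DESeq2, 165 with no filter on low counts, 23 with at least 3 rule-gene UMIs, 23 with the density rule, 3 without shared barcodes, 0 in smooth-muscle-poor cells, 27 in smooth-muscle-rich cells and 37 in smooth-muscle-rich cells of the density rule. It was 1 with at least 6 rule-gene UMIs, with doublets left out and with stricter keratin and collagen limits. Leaving out a library gave 0 to 373 calls. The 23 calls of the density set were 10 with DESeq2, of which 8 were shared, 142 with no filter, and 84 to 148 with a library left out. DESeq2 gave no adjusted p to the other 15 of the 23, Prss22 among them.

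Replicate numbers did not pair the libraries, with correlations of deviations over 2 pairs of 0.152 in the chosen cells, -0.0316 in the density set and -0.0342 in fibroblasts. With a replicate block the calls were 4 in the chosen cells, 69 in the density set and 7 in smooth-muscle-rich chosen cells. Those rich cells had 27 calls, 49 with the split at 40 per 10000 and 45 with no filter, and 27 to 185 with a library left out. With the split at 40, poor cells had 1 call and their interaction with rich cells 21.

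Interactions with fibroblasts numbered 17 to 80 for the chosen cells and 10 to 54 for the density set with a library left out, and those with endothelial cells 18 to 842 and 270 to 417, against 268 with the density rule in place of the chosen cells. The difference in the share of chosen cells was -7.22e-05 percentage points after thinning, against 0.393 before, and 0.300 to 0.487 with a library left out. With the density rule the difference was 0.456. Thinning also made the rule stricter, as given above. The differences in shares with a UMI, in percentage points, were 1.23 for Lepr, 0.357 for GFP and 7.59 for tomato after thinning, against 2.78, 7.85 and 2.90 before.

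In smooth-muscle-rich cells of the density rule 6 falls of the density set were positive, at 0.74 for 2310046K23Rik, 0.69 for Fam25c, 0.27 for Krt10, 1.40 for Krtdap, 0.81 for Lgals7 and 0.60 for Sbsn. The cause was not tested. The density rule and its fits were added after the data were seen. Depth limited the precision, with summed totals of 515458 to 826190 UMIs a library in the density set.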
